A study of Homo sapiens with 2 samples.

Results

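HMGB2 is a high mobility group box protein, an abundant chromatin component that binds DNA with little sequence preference and bends it. The regions described here are narrow HMGB2 regions from chromatin immunoprecipitation sequencing that lie in the darkest Giemsa bands of human chromosomes. The authors called them in 1 library of IMR90 lung fibroblasts made senescent by infection with RAS, set against 1 library of growing control IMR90 cells. Both libraries came from day 2 and from cells kept at 2% oxygen, and each was built from 10 ng of DNA precipitated with a rabbit HMGB2 antibody. The RAS gene, the vector and any empty vector in the growing cells are details not given in the sources used here. With a single library per condition no value below has a replicate check, and the list carries positions only, so the cell type could not be checked against marker genes. The list is named for senescent cells versus growing cells, and a region is taken to be higher in senescent cells on that ground alone.

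Members were the regions from data row 280 to row 2792, the last of the narrow list, whose midpoint lies in an hg19 band of the stain class gpos100. Of the 2513 regions in these rows 602 (24.0%) met the rule, and all 602 are 264 bp wide. Row and band edge set the membership. The value that orders the rows was not given, so whether the row limit follows a measured value cannot be told. At the row limit, the last gpos100 region left out was row 276, in 11q22.3, and the first member was row 280, in 12q12. At the band edges, 18 members lay within 100 kb inside an edge and 15 other regions within 100 kb outside one. The bands were chosen with the dark-band share of the whole narrow list already known, so the overall density given next describes the members and is no independent finding.

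Giemsa staining divides each chromosome into bands. Dark bands are rich in A and T and poor in genes, replicate late in S phase and often lie at the nuclear lamina. Many of the longest human genes, among them genes for neuronal adhesion molecules, lie in them. In senescent fibroblasts the lamina is altered and heterochromatin is rearranged.

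The 602 members gave 1.21 regions per Mb over the 498.5 Mb of the 81 gpos100 bands, with an exact Poisson 95% interval of 1.11 to 1.31. All 81 bands held at least 1. The next darkest class, gpos75, held 1.04 per Mb (0.941 to 1.14), and gpos100 exceeded it 1.16-fold with an exact conditional 95% interval of 1.03 to 1.32. The lighter classes lay together, at 0.712 per Mb in gpos50, 0.723 in gpos25 and 0.763 in unstained gneg bands. Against gneg, gpos100 was 1.58-fold denser (1.43 to 1.75). The intervals of these and later ratios count regions and leave out the added spread between bands. Across gpos100 bands the variance of counts over expectation was 1.58, so the small step from gpos75 to gpos100 is not settled. The density thus did not climb evenly with stain, since gpos25 and gpos50 had intervals that overlap that of gneg, and only the 2 darkest classes lay above it.

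**Figure D1:**
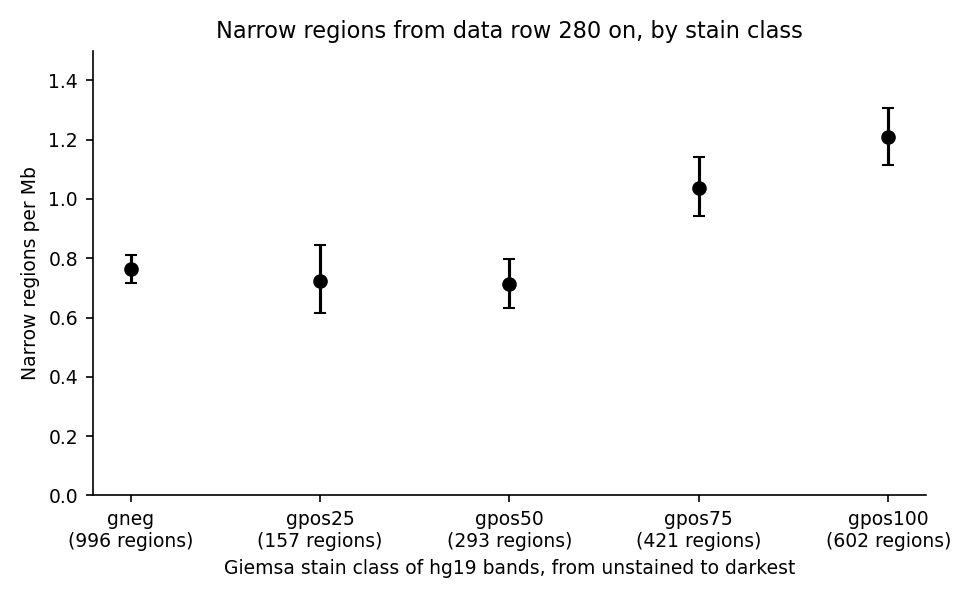
Narrow regions per Mb (vertical axis) in hg19 bands of each Giemsa class (horizontal axis), for regions from data row 280 on. Points are counts over band length and bars exact Poisson 95% intervals. The gpos100 point, at 1.21 per Mb, is the highest, gpos75 follows at 1.04, and the 3 lighter classes lie between 0.712 and 0.763.

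The bands that border gpos100 bands gave a nearer comparison, which describes the same excess. All 137 of them are gneg bands, and they held 372 regions, or 0.847 per Mb (0.763 to 0.938), which gpos100 exceeded 1.43-fold (1.25 to 1.63). Band by band, 49 gpos100 bands were denser than their own neighbours and 32 were less dense. Counts in single bands are small, with a median of 7 members. The split that counting error alone would give was not computed, so whether some bands lack the excess cannot be told.

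The same contrast was not seen in the other regions called on these libraries. Among the narrow regions listed before row 280, 46 lay in gpos100 bands, at 0.0923 per Mb (0.0676 to 0.123), against 0.0965 per Mb in gneg bands, a ratio of 0.956 (0.667 to 1.35). Of the 364 broad regions 54 lay in gpos100 bands, at 0.108 per Mb, against 0.134 per Mb in gneg bands, a ratio of 0.808 (0.584 to 1.10). Both intervals lie below that of the members (1.43 to 1.75). The narrow list was also cut into 10 parts by row, with the gpos100 share taken over regions in gneg and gpos bands only. The lowest share was 17.0% (12.7 to 21.9) in rows 1 to 280 and the highest 27.4% (22.2 to 33.1) in rows 2235 to 2513. Rows 560 to 838 had 20.2%, and the last rows, from 2514 on, had 25.3%. The share did not rise at every step, and whether it varied beyond counting error was not tested. The value by which the list is ordered was not given in the sources used here.

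Densities differed between bands somewhat more than even placement gives, but few single bands could be told from the rest. Counts per band ran from 1 to 18 with a median of 7, and densities from 0.233 to 2.56 per Mb with a median of 1.15. The variance of counts over their expectation by length was 1.58 across the 81 bands, where placement at a single density gives about 1. A band was called high or low when its Poisson interval lay wholly above or below 1.21 per Mb. Of the 81 bands, 3 were called high (3.7%) and 1 was called low (1.23%), and placement at a single density gives on average 1.49 high and 1.15 low calls. With so few calls beyond those that even placement gives, the order among the bands below is not settled.

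**Figure D2:**
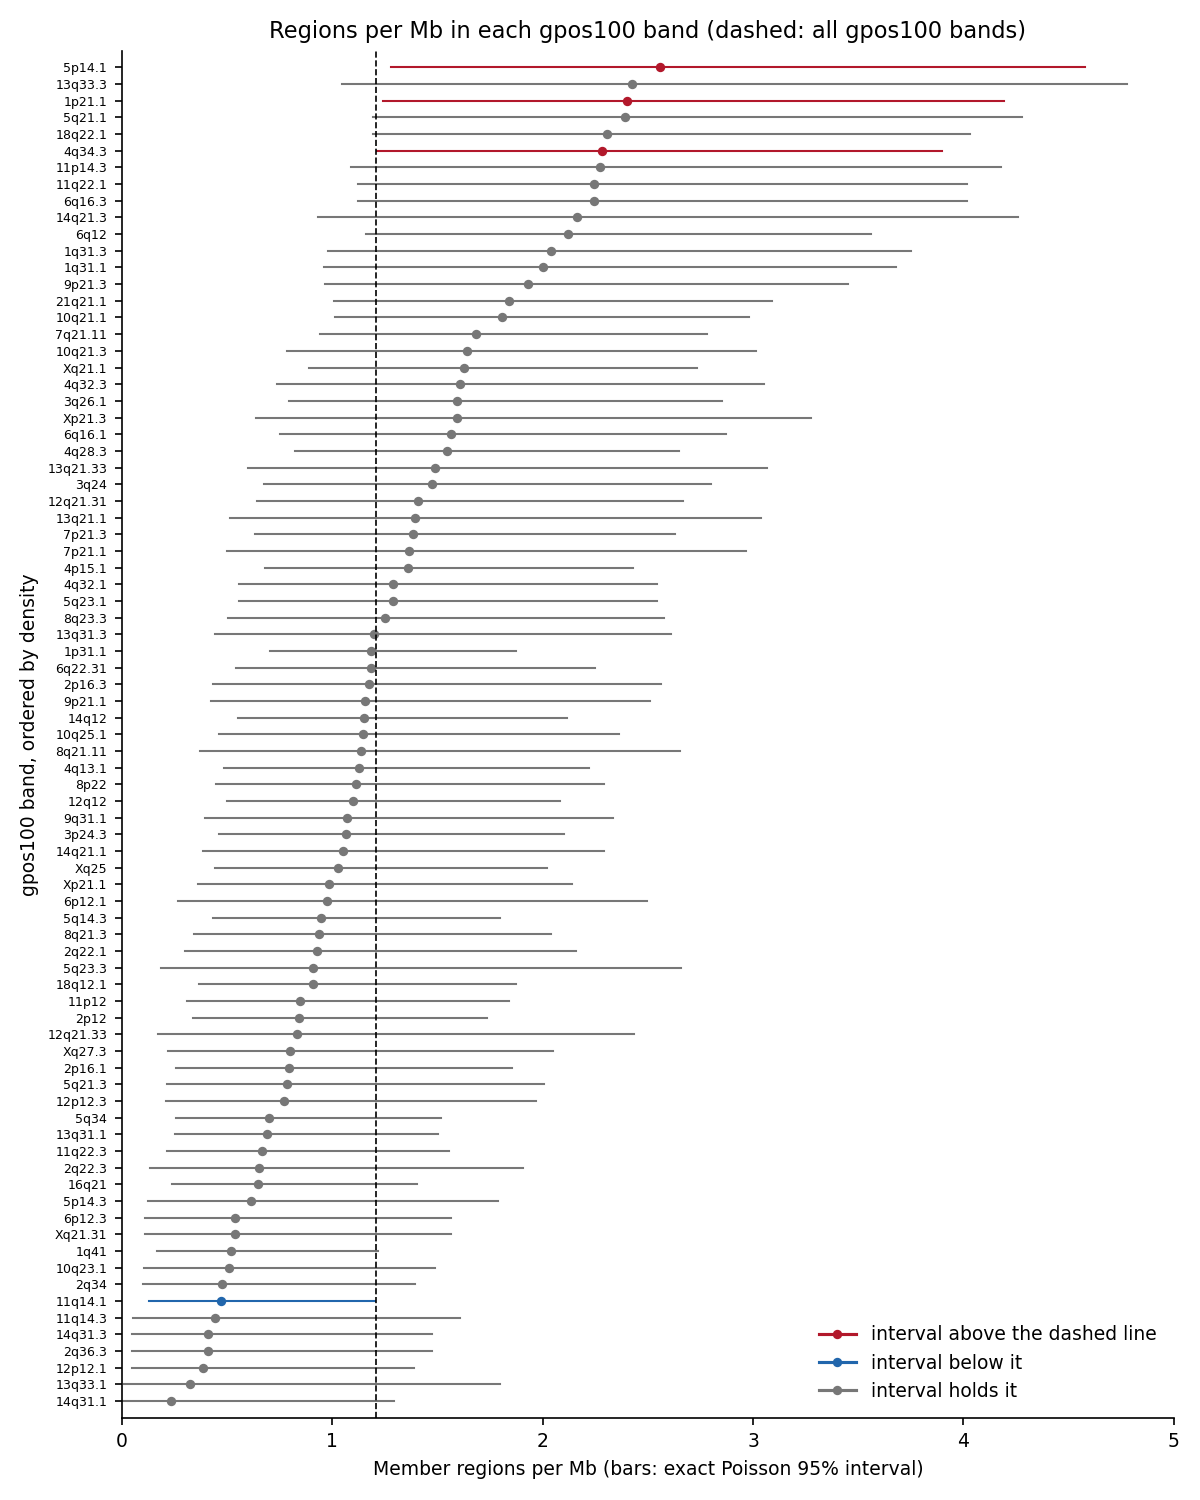
Members per Mb (horizontal axis) in each of the 81 gpos100 bands (vertical axis, ordered by density). Points are densities, bars exact Poisson 95% intervals, and the dashed line is the density over all gpos100 bands, 1.21 per Mb. Only 5p14.1, 1p21.1 and 4q34.3 lie wholly above the line and only 11q14.1 wholly below it.

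The densest band, 5p14.1, held 11 members in 4.3 Mb, or 2.56 per Mb (1.28 to 4.58). It is a gene desert: the gene table of the assembly GRCh38.p14 places a single protein-coding gene in it, CDH9, a type II cadherin that joins cells by homophilic adhesion. Band 1p21.1 held 12 members in 5 Mb, or 2.40 per Mb (1.24 to 4.19), and 8 protein-coding genes. Those with the largest spans are COL11A1, a chain of fibrillar collagen XI, OLFM3, an olfactomedin, and RNPC3, a protein of the minor spliceosome. Band 4q34.3 held 13 members in 5.7 Mb, or 2.28 per Mb (1.21 to 3.90), and only 4 protein-coding genes. Among these are TENM3, a teneurin of over 1 Mb that takes part in neuronal adhesion, VEGFC, a growth factor of lymphatic vessels, and NEIL3, a DNA repair glycosylase. All 3 bands are among the 27 with the fewest protein-coding genes per Mb, although 1p21.1, at 1.63, is at the upper limit of those 27. Sparse bands are among the 27 too, such as 5p14.3 (0.612 members per Mb) and 14q31.1 (0.233), the sparsest of all. Bands 1p21.1 and 4q34.3 had lower interval bounds of 1.24 and 1.21, close to the overall density.

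The other dense bands had intervals that include 1.21 per Mb. Band 13q33.3 held 8 members in 3.3 Mb (2.42 per Mb, 1.05 to 4.78). It carries 2 genes of at least 500 kb, MYO16, an unconventional myosin, and NALF1, an auxiliary subunit of a sodium leak channel, beside EFNB2, an ephrin ligand. Band 5q21.1 held 11 members (2.39 per Mb, 1.19 to 4.28) and has PAM, the enzyme that amidates peptide hormones, SLCO6A1, an organic anion transporter, and ST8SIA4, a polysialyltransferase. Band 18q22.1 held 12 (2.31 per Mb, 1.19 to 4.03), and its largest genes are CCDC102B and the cadherins CDH7 and CDH19. The remaining bands of the 10 densest were 11p14.3, 11q22.1, 6q16.3 and 14q21.3, at 2.16 to 2.27 per Mb. Each of these 4 has a single gene of at least 500 kb, namely LUZP2, CNTN5, a contactin of neuronal adhesion, GRIK2, a kainate receptor subunit for glutamate, and MDGA2, an adhesion protein of synapses. Together the 10 densest bands, on 8 chromosomes, held 107 members (17.8%) in 9.23% of the gpos100 length. They were picked as the densest, so their sum is a description.

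At the sparse end, 11q14.1 held 4 members in 8.5 Mb, or 0.471 per Mb (0.128 to 1.20), and has 31 protein-coding genes, among them DLG2, a postsynaptic scaffold, and the teneurin TENM4. The 5 sparsest bands were 14q31.1, 13q33.1, 12p12.1, 2q36.3 and 14q31.3, with 8 members in 22.4 Mb in all. Band 14q31.1 held 1 member in 4.3 Mb and is the band of NRXN3, a presynaptic neurexin of over 1 Mb, CEP128, a centriole protein, and TSHR, the thyrotropin receptor. Band 13q33.1 also held 1, in 3.1 Mb, and has FGF14, a modulator of sodium channels, NALCN, the sodium leak channel itself, and ITGBL1. Band 12p12.1 held 2 in 5.2 Mb and has SOX5, a transcription factor gene of over 1 Mb, LMNTD1 and SLCO1A2. Intervals of these 5 bands reached 1.30 to 1.80 per Mb, so none was separated from the overall density. Bands 13q33.1 and 13q33.3, which only 13q33.2 separates on chromosome 13, held 1 and 8 members.

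The members were divided by deposited order at row 1396, the middle of the list, to see whether the same bands were dense in both parts. Band densities of the 255 earlier and 347 later members were weakly related across the 81 bands (Pearson r 0.26, Spearman rho 0.32), as a description over bands that share both libraries. Band 5p14.1 held 6 earlier and 5 later members, and 1p21.1 held 8 and 4. In contrast, 18q22.1 held 1 earlier and 11 later members and 6q16.3 held 2 and 9. Band 11q14.1 had all of its 4 members in the later part. Some bands thus drew most members from a single part of the list, and others, such as 5p14.1, from both. The bands named were picked from 81, and with a median of 7 members per band the counts in each part are small. The correlation that counting error alone would give was not computed.

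Genes were counted by joining hg19 bands to the GRCh38 bands of the same name, with each protein-coding gene placed by its midpoint and no coordinates converted. Lengths differ by at most 100 kb between the builds for 78 of the 81 bands, and 11p14.3 is one of the exceptions. The join gives the genes of a band and cannot say whether a region lies in a gene, an intron or between genes. The gpos100 bands have 2.43 protein-coding genes per Mb, against 9.32 in gneg bands, and a median of 13 genes each.

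Within the gpos100 bands, those poorest in genes held more members per Mb. The 27 bands with the fewest genes per Mb (0.233 to 1.63) held 232 members, or 1.38 per Mb (1.21 to 1.57). The 27 middle bands held 201, or 1.19 per Mb (1.03 to 1.37), and the 27 richest in genes (2.95 to 5.80 per Mb) held 169, or 1.04 per Mb (0.892 to 1.21). The poorest bands were 1.32-fold denser than the richest, with an interval of 1.08 to 1.62, which was 0.980 to 1.67 around a ratio of 1.28 with the later members alone. This interval counts regions and leaves out the added spread between bands. The division of the bands by genes per Mb was not planned in advance. Across the 81 bands, density and genes per Mb had a Pearson r of -0.25 and a Spearman rho of -0.25, given as a description over bands that share both libraries. The relation was loose: 5p14.1, with 1 gene, was the densest, whereas 14q21.3, with 16 genes in 3.7 Mb, still held 2.16 per Mb. Base composition and the share of each band in which reads can be placed were not measured here.

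**Figure D3:**
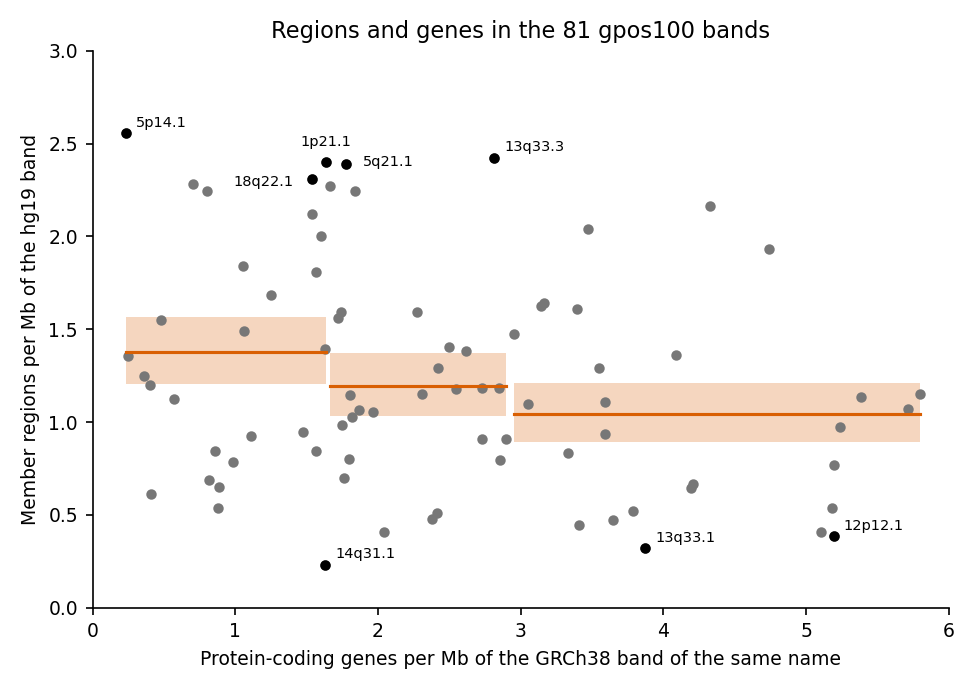
Members per Mb of each hg19 gpos100 band (vertical axis) against protein-coding genes per Mb of the GRCh38 band of the same name (horizontal axis). Points are the 81 bands, black and labelled for the 5 densest and 3 sparsest, and orange lines with shading give the density and Poisson 95% interval of the 27 gene-poorest, 27 middle and 27 gene-richest bands. The orange lines step down from 1.38 to 1.19 and 1.04 per Mb while single bands scatter widely around them.

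Long genes did not mark the dense bands. Of all 20037 protein-coding genes placed, 1204 lie in gpos100 bands. Of the 315 protein-coding genes of at least 500 kb, 73 (23.2%) lie in gpos100 bands, and of the 69 of at least 1 Mb, 28 (40.6%) do. The 50 bands with a gene of at least 500 kb held 1.18 members per Mb (1.06 to 1.30), and the other 31 held 1.27 (1.11 to 1.44). For genes of at least 1 Mb the values were 1.14 (0.980 to 1.33) in 24 bands and 1.23 (1.12 to 1.36) in the other 57. The intervals overlap in both comparisons. Bands with a gene of at least 1 Mb ranged from 14q31.1 (NRXN3) at 0.233 per Mb and 2q34 at 0.476, the band of ERBB4, a neuregulin receptor, to 4q34.3 (TENM3) at 2.28. The 5 bands denser than 4q34.3 have no such gene. Band 10q21.1, with PRKG1, a cyclic GMP-dependent kinase, and PCDH15, a protocadherin of hair cells, held 15 members (1.81 per Mb). Band 7q21.11, with MAGI2, a synaptic scaffold, also held 15 (1.69 per Mb). The summed span of protein-coding genes as a share of the band had a Pearson r of -0.26 with density across the 81 bands.

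Families of neuronal and adhesion genes that are common in dark bands gave a similar picture. The gene counts below stand beside 1204 of all 20037 protein-coding genes placed that lie in gpos100 bands. Of 36 cadherin and non-clustered protocadherin genes, 15 lie in gpos100 bands. Their 10 bands held 1.32 members per Mb (1.05 to 1.62), against 1.19 (1.09 to 1.30) in the other 71, from 5p14.1 (CDH9) at 2.56 down to Xq21.31 (PCDH11X) at 0.536. Band 16q21, with CDH5, CDH8 and CDH11, held 6 members in 9.3 Mb, and CDH11 is a cadherin of mesenchymal cells. All 4 teneurin genes lie in gpos100 bands, which ranged from 0.471 (TENM4) through 0.698 (TENM2, 5q34) and 1.03 (TENM1, Xq25) to 2.28 (TENM3). The 7 bands of glutamate receptor genes held 1.01 per Mb (0.734 to 1.37), the highest being 6q16.3 (GRIK2) at 2.24 and the lowest 11q14.3 (GRM5) at 0.444. The 4 bands of contactin and neurexin genes held 1.20 per Mb (0.791 to 1.75). Of 392 olfactory receptor genes only 8 lie in a gpos100 band, all in 9q31.1, with 6 members (1.07 per Mb). The interval of each family includes 1.21 per Mb.

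Densities also varied between chromosomes, with few calls. Of the 24 chromosomes 18 have gpos100 bands, and chromosomes 15, 17, 19, 20, 22 and Y have none. Densities over gpos100 bands ran from 0.645 per Mb on chromosome 16, with 6 members in its only such band, to 1.84 on chromosome 21, with 14 members in its only band, 21q21.1. By the rule used for bands, 0 of 18 chromosomes were called high (0%) and 1 was called low (5.56%). The number of calls that even placement gives was not computed for chromosomes, so the single call is a description. The chromosome called was chromosome 2, with 31 members in 40.9 Mb, or 0.758 per Mb (0.515 to 1.08), where length predicts 49.4. Its 7 gpos100 bands all lay at or below 1.18 per Mb. With only the earlier members chromosome 2 was not called (14 members), and chromosome 11 was low in its place, at 0.271 per Mb (0.130 to 0.498). Chromosome 4 held most members, 62 in 41.1 Mb (1.51 per Mb, 1.16 to 1.93), followed by chromosomes 1 and 5 with 55 each. Over the 18 chromosomes the variance over expectation was 1.49, and whether this exceeds even placement was not tested.

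The excess over unstained bands, no independent finding as stated above, can also be described chromosome by chromosome. On all 18 the gpos100 density was above the gneg density of the same chromosome, and on 7 of them the interval of the ratio lay above 1. These were chromosomes 1, 4, 6, 7, 9, 10 and 21, with ratios of 1.67 to 2.36. On chromosome 4 gpos100 bands held 1.51 per Mb and gneg bands 0.726, a ratio of 2.08 (1.42 to 3.04), and on chromosome 1 the ratio was 2.07 (1.43 to 2.98). The lowest ratios, on chromosomes 2, X, 12 and 16, were 1.03, 1.06, 1.10 and 1.08, with intervals that include 1. On chromosome 2 the gneg density, 0.736 per Mb, was within the range of the other chromosomes, and its low ratio went with few members in its dark bands. On chromosome X the gneg density was the highest of the 18, 1.05 per Mb. Against gpos75 bands, gpos100 was denser on 12 of 18 chromosomes. On chromosome 13 gpos75 held 1.88 per Mb and gpos100 1.17.

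**Figure D4:**
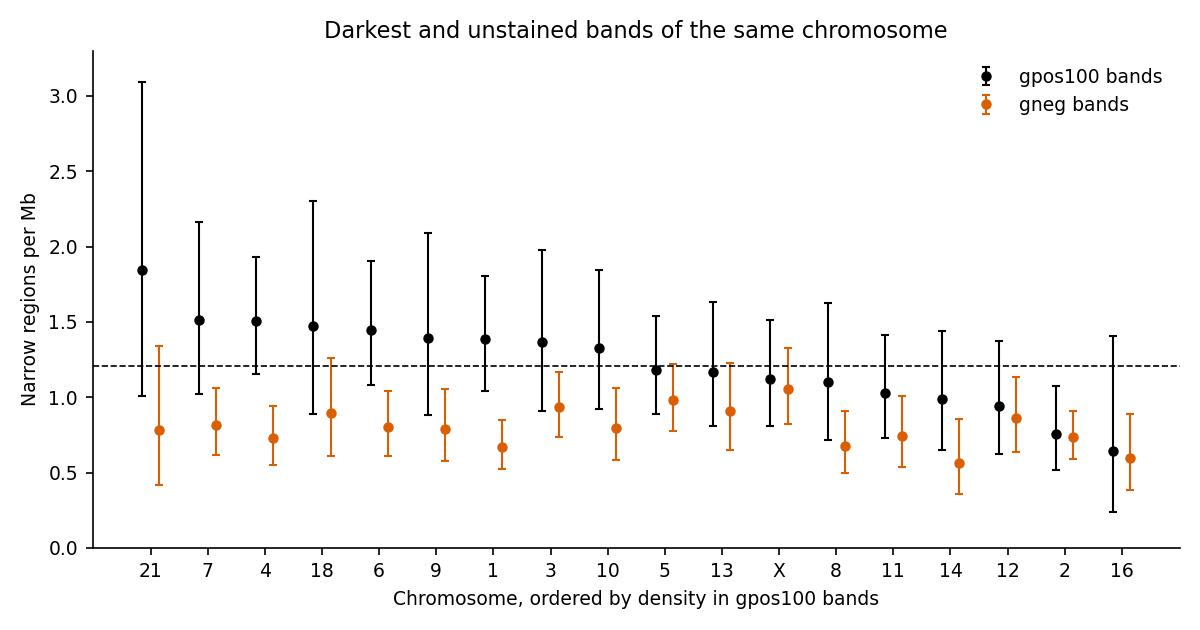
Narrow regions per Mb from data row 280 on (vertical axis) in gpos100 bands (black) and gneg bands (orange) of each chromosome with gpos100 bands (horizontal axis, ordered by gpos100 density). Bars are exact Poisson 95% intervals and the dashed line is 1.21 per Mb. Each black point lies above its orange partner, by the least on chromosome 2 (0.758 against 0.736).

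Spacing between members was close to even placement. Consecutive members of the same band gave 521 spacings, measured edge to edge, with a median of 467 kb, a smallest value of 6639 bp and a largest of 4.76 Mb. Of these 75 were at most 100 kb, or 14.4% with an exact binomial 95% interval of 11.5 to 17.7. Placement at a single density over all gpos100 bands gives 13.1% in closed form, and placement within each band with its own count gives 13.9%. Counted by region, 143 members (23.8%) had another member of their band within 100 kb, where the second kind of placement gives 136 on average. At 10 kb the share was 0.768% (0.210 to 1.95) against 1.42%, at 50 kb 6.14% against 6.77%, at 200 kb 24.8% against 24.4%, and at 500 kb 51.6% against 50.5%. The interval at each of these distances included the value for even placement.

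**Figure D5:**
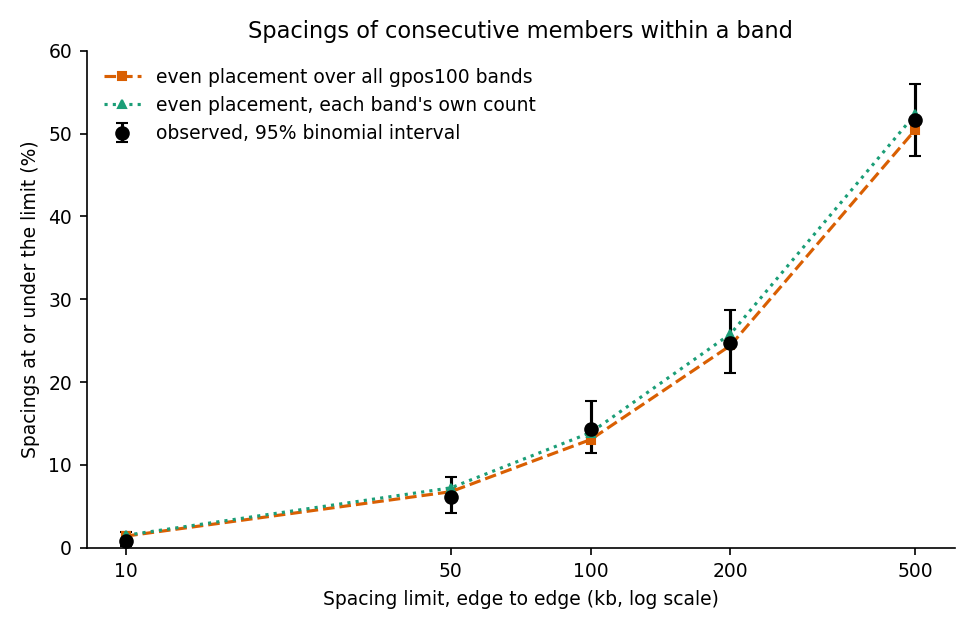
Share of the 521 spacings at or under a limit (vertical axis, percent) for limits of 10 to 500 kb (horizontal axis, log scale). Black points with exact binomial 95% intervals are the observed shares, and orange and green marks are the closed-form shares for even placement over all gpos100 bands and within each band. At 100 kb the observed share is 14.4% and the others 13.1% and 13.9%, both inside the interval.

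The other stain classes did not differ clearly in this respect. Shares within 100 kb were 13.9% in gneg, 16.1% in gpos25, 16.1% in gpos50 and 17.3% in gpos75 bands. Even placement over the bands of each class gives 11.1, 11.9, 10.5 and 12.3%. Placement within each band with its own count gives 12.6, 11.7, 11.3 and 13.5%. The intervals of gneg (11.3 to 16.7), gpos50 (11.2 to 22.1) and gpos75 (13.4 to 21.7) lay above the first kind of placement and included the second, and that of gpos100 included both. The interval of gpos100 overlaps all of theirs, and the difference between classes was not tested. With every narrow region counted as a possible neighbour, whatever its row or band, 154 members (25.6%) had one within 100 kb.

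Close members mostly came as pairs. Linking members at most 100 kb apart gave 62 pairs, 5 runs of 3 and 1 run of 4, and 459 members stood alone. The run of 4 lay in 9p21.3, at chr9:22509588-22755429 in hg19, and spanned 246 kb. Band 4q34.3 had 2 runs of 3, at chr4:177657107-177735262, which at 78.2 kb was the tightest, and at chr4:180523004-180648565. Band 3q24 also had 2, at chr3:145082577-145223457 and chr3:146609800-146726986. The last run of 3, at chrX:28842911-28976668, spanned 134 kb of Xp21.3. No narrow region outside the members lay within any of the 6 runs. The number of runs that even placement gives was not computed, so the runs are a description of positions. The 75 close spacings were spread over 44 bands, with at most 6 in a band, 4q34.3, and 4 in 3q24. The closest pair, 6639 bp apart, lay in 5q23.1, and the next, 6716 bp apart, in 1p31.1, the longest gpos100 band (18 members in 15.2 Mb).

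Stretches without a member were also found in these bands. The longest covered 4.76 Mb of 13q31.1 (chr13:81161409-85918390), or 54.7% of that band, which held 6 members. In 10q23.1 a stretch of 4.27 Mb (72.3% of the band) had none, and in Xq25 one of 3.99 Mb. Assembly gaps and repeats in which reads cannot be placed were not measured here.

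Members showed no clear departure from even placement along their bands. The central 50% of the band held 297 of 602 (49.3%, 45.3 to 53.4). In 10 equal parts from the start to the end of a band, counts lay between 55 and 66. The parts follow the coordinates and pool both arms, so a trend towards or away from the centromere could be blurred. Short and long chromosome arms did not differ, with 1.20 per Mb (1.02 to 1.40) in the 22 bands of the p arm and 1.21 (1.10 to 1.33) in the 59 of the q arm.

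Few members lay in regions of the broad list. Only 7 of 602 overlapped one by at least 1 bp (1.16%, 0.469 to 2.38), near the 1.20% (0.624 to 2.10) of gneg bands. All 7 broad regions had the smallest width, 500 bp. They lay in 13q31.3, 5q23.3, 8q21.3, 9p21.3 and 7q21.11, with 1 each, and in Xq21.1 with 2. All 7 members were listed between rows 288 and 853. None of the 347 later members overlapped a broad region, which allows a share of up to 0.865%. Of the gpos100 regions listed before row 280, 11 of 46 (23.9%, 12.6 to 38.8) did. Among the 54 broad regions of gpos100 bands 4 were wider than 500 bp, a pair of 1198 and 964 bp in 12q21.33 and single ones of 834 bp in 13q31.1 and 778 bp in 1p21.1, and none of them held a member.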

How the data were processed

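HMGB2 chromatin immunoprecipitation sequencing was available for 1 RAS-induced senescent and 1 growing IMR90 library, grouped by the cell condition in the labels. Bowtie 0.12.9, HOMER 1.0 and the build hg19 are named, with no role, in the submitters' processing notes. Calling settings, input control and depth were not given in the sources used here. Both region lists that the authors deposited hold, per the file headers, an identifier, chromosome, start and end, with no score, fold or count. Whether starts count from 0 or 1 is not stated, so positions may differ by 1 bp.

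Regions were placed by midpoint in hg19 bands from circlize 0.4.16 (R 4.3.3). Members, lists and alternatives were chosen with earlier results of these data known. Intervals are 95% and exact: Poisson for densities, Clopper-Pearson for shares, conditional binomial for ratios. They cover counting error only. The limit for a count of 0 uses 3 counts. No test between samples was possible. Even placement was computed in closed form, not by drawing, and the formulas were tested on simulated data. A correlation over bands has no p.

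Protein-coding genes of GRCh38.p14 (20037 placed) were joined by band name, and a gene's span is its length in that table. Bands named were the 10 densest and 5 sparsest. Genes named were up to 3 of largest span in the 5 densest and 3 sparsest bands, cadherins in the 10 densest, and members of the gene lists (long genes, cadherins, contactins and neurexins, teneurins, glutamate and olfactory receptors). Runs of at least 3 members were named. The other genes of 4q34.3, and bands singled out for a call, a gap or a gene of a list, were named after their values were seen. Alternatives varied the rows, merging (1 kb), chromosomes, stain classes, distances and overlap. Sequence was not used here. Scripts ran in Python 3.11.15 with scipy 1.17.1, numpy 2.4.6 and pandas 2.3.3, and matplotlib 3.10.9 drew the plots.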

Additional observations from a re-analysis of the deposited data

How the results depend on the processing

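The rows used set the number of members, 255 from row 280 to the middle of the list and 347 after it, by construction. The ratio of gpos100 to gneg density stayed above 1 when rows, chromosomes or classes were varied (1.42 to 1.73). It fell to 0.956 with the regions before row 280 and to 0.808 with the broad regions, both added after seeing the data. Merging within 1 kb could not change the 602 members, the closest of which lay 6639 bp apart, and so was no check on them. In the main setting 4 of 81 bands were called high or low, and 13 of 170 were when gpos75 bands were added. That set is larger by construction, and the calls that even placement gives in it were not computed. Its density was 1.13 per Mb, and against it the gpos100 bands 18q22.1, 5q21.1 and 6q12 were also high. Band 4q34.3 was not called with the earlier members (4 regions) or without chromosome X, and 5p14.1 (5 regions), 1p21.1 (4) and 11q14.1 (4) were not called with the later members. Band 11q14.1 was also not called among gpos75 and gpos100 bands together. Calls were gained as well: with all rows 18q22.1 was high (2.50 per Mb, 1.33 to 4.28) and 14q31.1 low (0.233), and with the later members 18q22.1 (2.12), 6q16.3 (1.84) and 11q22.1 (1.63) were high and 10q23.1 (0 regions) low. The observed over the even share of spacings was 1.10 within 100 kb, 0.540 within 10 kb and 0.907 within 50 kb, and each interval included 1. Overlap with broad regions was 2.78% with all rows, 2.75% with the earlier and 0% with the later members, and the cause was not tested. The observed over the even share in the central part of bands was 0.987, and 1.06 with the later members, with intervals that include 1. The ratio of gene-poor to gene-rich bands was not planned in advance, and its alternatives were added after seeing the data. This ratio was 1.28 with the later members, where its interval reached 1, and 1.30 to 1.39 in the other alternatives. In all, 66 of 85 recomputed values were scored as unchanged. For ratios and single bands or chromosomes this meant the same direction and call. For numbers of calls it meant a similar number, not the same bands or chromosomes. Member counts, correlations and overlap were scored by closeness to the main value. The 66 include values from the merged setting, which could not change the members. No paired analysis was possible because there is a single library per condition, with no value of its own in the list. Depth is unknown, which limits what a missing region shows.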
